A study of Homo sapiens with 12 samples.

Results

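The SR splicing factor family was followed through nascent RNA as 10 genes, SRSF1, SRSF2, SRSF3, SRSF4, SRSF5, SRSF6, SRSF7, SRSF9, SRSF10 and SRSF11, taken wherever the gene symbol of the count table equalled one of these names. They are 10 of the 60583 genes in the table, and all 10 were found. SRSF8 and SRSF12 are counted here among SR-related proteins, and processed copies of SRSF1, SRSF9 and SRSF10 are listed in the table under symbols of their own.

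SR proteins bind short exonic sequences through RNA recognition motifs and use a tail rich in arginine and serine to bring the U1 and U2 snRNPs to nearby splice sites. Kinases of the SRPK and CLK families phosphorylate that tail, the import receptor transportin-SR carries the proteins into the nucleus, and hnRNP proteins often oppose them. Many SR genes hold a conserved poison exon, whose inclusion sends the mRNA to decay and lets each protein limit its own level.

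TT-seq captures RNA that has taken up 4-thiouridine, so it reads transcription over introns and exons alike rather than the store of mature mRNA. Libraries came from U2OS, a human osteosarcoma line, and from U2OS-AsiSI, U2OS cells with the restriction nuclease AsiSI joined to an oestrogen receptor domain (AsiSI-ER). Both lines received either a control siRNA, siCtrl, or siINTS11, against the endonuclease of the Integrator complex, and all 12 libraries were taken 48 h later, 3 per line and siRNA. The series asks how Integrator acts on the processivity of RNA polymerase II. All 6 U2OS-AsiSI libraries, siCtrl included, had 1 h of 4-hydroxytamoxifen (OHT), which moves the nuclease into the nucleus, and the labels give no OHT for the 6 U2OS libraries. Line, nuclease and OHT therefore cannot be told apart. The labels do not say whether the line is 1 clone, or whether replicates were separate cultures, so p-values measure the spread between libraries, which may be technical.

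Totals ran from 20704611 counts (U2OS-AsiSI siINTS11 replicate 2) to 38065726 (U2OS siCtrl replicate 2). Of 7 osteosarcoma or mesenchymal markers all 7 had reads in every library, with RUNX2, VIM, COL1A1, FN1 and CDH2 high and COL1A2 (2 to 13 reads) and TWIST1 (2 to 9 reads) near 0. The summed level of the 7 was 1306 to 1385 CPM (counts as a rate of the library total after TMM scaling, which sets a typical gene equal between libraries) in U2OS siCtrl, 934 to 1002 in U2OS siINTS11, 1215 to 1257 in U2OS-AsiSI siCtrl and 893 to 924 in U2OS-AsiSI siINTS11. The summed level of 4 epithelial markers, mostly KRT8 and KRT18, was 84.7 to 90.6, 101 to 107, 93.3 to 103 and 124 to 136 CPM in the same order, and that of 3 haematopoietic markers, CD3E among them at 0 or 1 read, stayed at 0.305 to 0.572 CPM. The part of these marker shifts in the results was not tested. INTS11 itself stood at 9.63, 10.99 and 9.82 CPM in siCtrl and 9.01, 9.33 and 9.48 in siINTS11 of U2OS-AsiSI, and at 10.1, 8.87 and 10.1 against 7.85, 7.06 and 7.18 in U2OS, with the siINTS11 libraries lower in both lines. It changed by -0.13 on the log2 scale in U2OS-AsiSI (SE 0.08, edgeR adjusted p 0.172), a sign that flipped to 0.06 when libraries were scaled by their totals alone, and fell by 0.42 in U2OS (SE 0.09, edgeR adjusted p 6.08e-05). Nascent reads do not measure the store of mature INTS11 mRNA, so these values do not show how far the knockdown went in either line. Here siINTS11 means the libraries labelled so.

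What the table counts at each SR gene came first, because the annotation decides how much of a gene it holds. The counted length is the whole gene span, introns included, in GRCh38 coordinates. SRSF3 (chromosome 6, 36594353 to 36605600, plus strand), SRSF5 (chromosome 14, 69726900 to 69772005, plus), SRSF7 (chromosome 2, 38743599 to 38751494, minus), SRSF9 (chromosome 12, 120461672 to 120469748, minus), SRSF10 (chromosome 1, 23964347 to 23980927, minus) and SRSF11 (chromosome 1, 70205682 to 70253052, plus) share no base with another gene of their own strand. SRSF2 (chromosome 17, 76734115 to 76737374, minus) and SRSF4 (chromosome 1, 29147743 to 29181900, minus) hold the small genes MIR636 and AL357500.2, 99 and 169 bases without a base of their own. Both are listed at 0 in each of the 12 libraries, which says nothing of how many reads fall there.

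SRSF1, the founding member and a known proto-oncogene, was almost wholly masked. Its span (chromosome 17, 58000919 to 58007346, minus strand, 6428 bases) is shared over 6328 bases with AC015813.2, a protein-coding entry of the same strand (57989038 to 58007246) whose limits are those RefSeq gives for SRSF1. Only the 100 bases from 58007247 to 58007346, ahead of the RefSeq start at 58007246, belong to SRSF1 alone. The table gives SRSF1 5 to 22 reads per library and AC015813.2 1085 to 1552. SRSF6 (chromosome 20, 43457893 to 43466046, plus strand), a regulator of keratinocyte and tau splicing, was in the same state: AL031681.3 (43458054 to 43541881, plus) covers 7993 of its 8154 bases, 161 bases are its own, and it has 19 to 31 reads. The values under these 2 symbols are levels of short stretches at the 5' end and not of the genes.

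**Figure D1:**
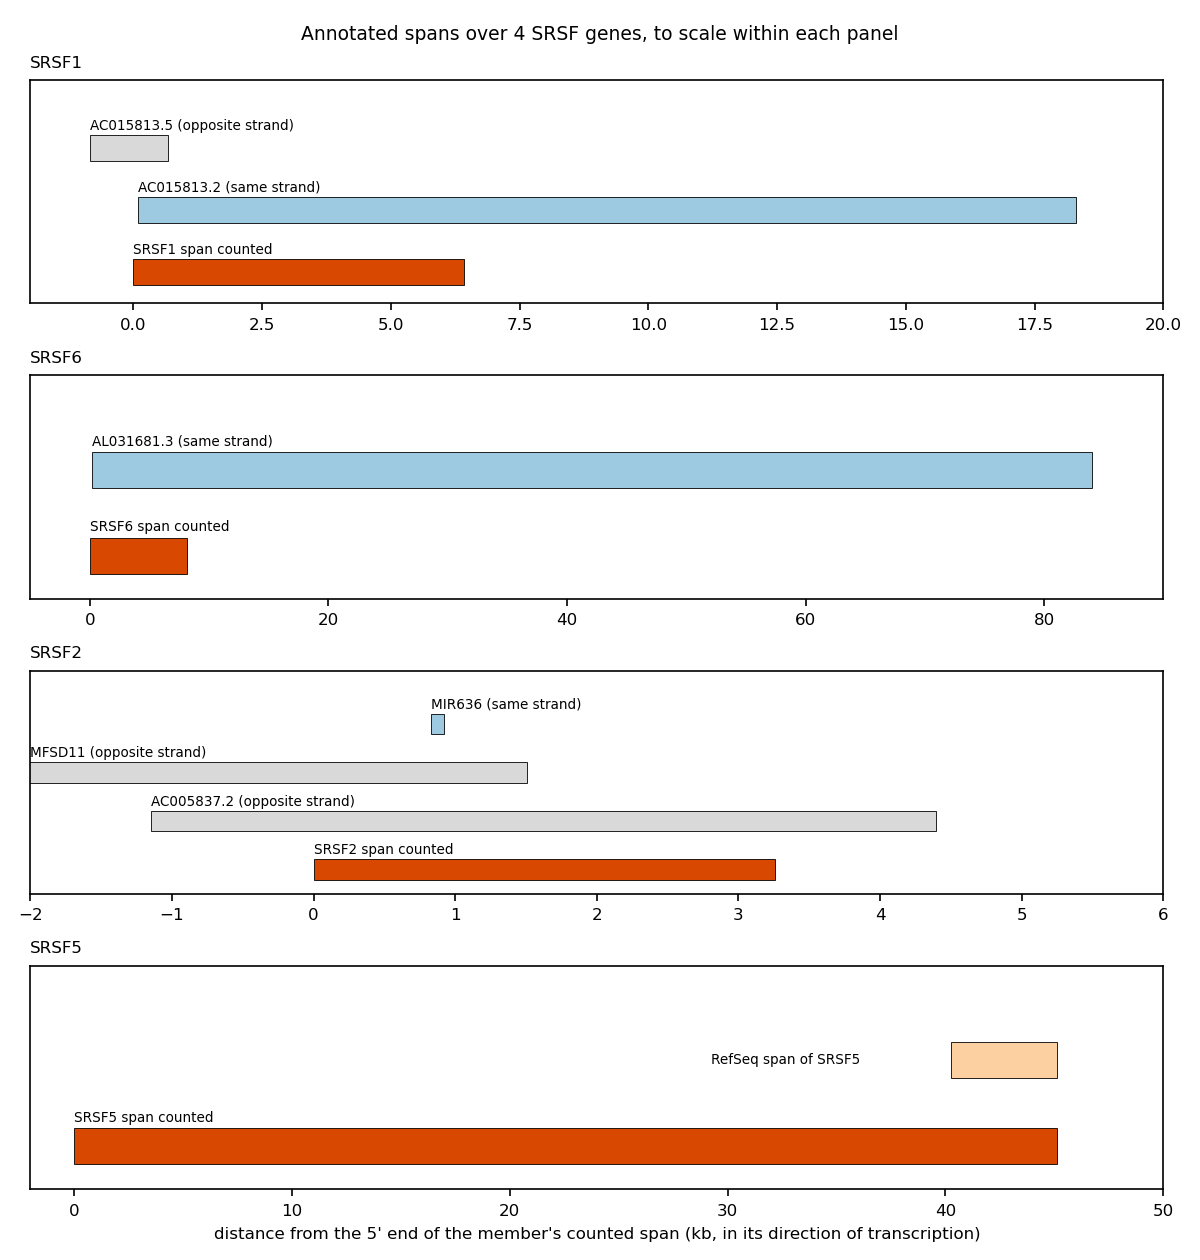
Annotated spans over SRSF1, SRSF6, SRSF2 and SRSF5; the x axis is the distance in kb from the 5' end of the counted span, bars are gene spans to scale within a panel, blue on the same strand and grey on the opposite one, and MFSD11 runs on past the left edge of its panel. AC015813.2 and AL031681.3 cover all but 100 and 161 bases of SRSF1 and SRSF6, while the SRSF5 span begins 40242 bases before the RefSeq start.

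Opposite-strand neighbours lay over SRSF2, SRSF9, SRSF11 and SRSF1. SRSF2 sits whole inside AC005837.2 (12 to 28 reads) and yet held 1289 to 1629 reads, and it also overlaps the start of MFSD11 by 1510 bases. AL353771.1 lies whole inside SRSF11 on the other strand and held 3 to 15 reads. Counting that ignored strand and dropped shared reads, as reads were dropped at SRSF1 and SRSF6, would have left both SRSF2 and AL353771.1 at 0, so the counts kept strand apart there. The setting itself is not given in the sources used here. SRSF5, an SR protein linked to insulin-regulated splicing, has the opposite problem of a long span: 45106 bases are counted, of which RefSeq assigns the last 4864 to SRSF5, so its level per base is diluted and includes whatever is transcribed ahead of the gene.

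Per base of counted span, the small SR genes had among the most reads. The part of exon content in these values was not tested. SRSF2, which also helps release paused polymerase through the kinase P-TEFb, had 0.459 reads per base on average over the 12 libraries, above 99.7% of 20355 genes averaging at least 10 reads. SRSF3, an adaptor for mRNA export, had 0.395 (above 99.5%) and SRSF7, a zinc knuckle protein that shares that export role, 0.343 (above 99.3%). SRSF10, a splicing repressor once dephosphorylated, had 0.200, SRSF9 0.173, SRSF4 0.125 and SRSF11 0.0991 reads per base, and SRSF5 with its long span 0.0408. All 7 members with more reads per base than SRSF5 lay above 92.1% of those genes.

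In U2OS siCtrl the level per kb of span was 13.9 ± 1.13 CPM for SRSF2 and 12.98 ± 0.546 for SRSF3 (SD, n = 3), whose libraries overlapped. SRSF7 stood at 10.5 ± 0.392 CPM per kb, SRSF10 at 6.63 ± 0.0863, SRSF9 at 5.00 ± 0.323, SRSF4 at 4.29 ± 0.0863, SRSF11 at 3.53 ± 0.0391 and SRSF5 at 1.29 ± 0.0707, each apart from its neighbours in this order. The order was the same in the other 3 groups. In U2OS-AsiSI siINTS11 the libraries of SRSF3 (14.3 ± 1.03 CPM per kb) overlapped those of SRSF7 (13.3 ± 1.14), and those of SRSF10 (7.01 ± 0.380) overlapped those of SRSF9 (6.68 ± 0.354). Over its own 100 bases SRSF1 stood at 2.33 ± 0.439 CPM per kb in U2OS siCtrl, and SRSF6 over its 161 bases at 4.93 ± 0.680.

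RefSeq promoter windows of GRCh38.p14, from 250 bases before to 50 after each annotated start, were matched by symbol for 9 of the 10 members, all but SRSF2. The core elements TATAAA and CCAAT, the factor motifs GGGCGG (SP1), ACTTCCGG (ETS), TGACGTCA (CRE), and CACGTG (E-box), and the AsiSI site GCGATCGC were searched as exact letters on both strands. None of the 9 held the AsiSI site, which 0.21% of 34796 windows of all genes hold. TATAAA was in the windows of SRSF3, SRSF7 and SRSF11 (11.6% of all windows), CCAAT in that of SRSF3 (34.6%), GGGCGG in those of SRSF4, SRSF6, SRSF7 and SRSF11 (44.9%) and ACTTCCGG in those of SRSF4 and SRSF5 (4.13%). The letters of the CRE and E-box motifs, held by 1.84% and 7.2% of all windows, were in none of the 9. SRSF7 and SRSF11 have a window at each of 2 annotated starts, and matches after a start or in a window not shown are counted but not printed. A match is a description of letters and shows no binding.

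The stretches ahead of the first annotated start are shown for 6 members whose counts cover their genes, to set the promoters of members that rose beside those of members that fell. Letters run 5' to 3' on the gene's strand, with matches to the motifs above, on either strand, in capitals. They lie at chr6:36594112-36594352 (plus) for SRSF3, chr14:69766892-69767141 (plus, ahead of the RefSeq start but inside the counted span) for SRSF5, chr2:38751495-38751744 (minus) for SRSF7, chr12:120469749-120469998 (minus) for SRSF9, chr1:29181901-29182150 (minus) for SRSF4 and chr1:70205446-70205681 (plus) for SRSF11. SRSF3 has TATAAA near the start, with CCAAT and its reverse complement upstream, and SRSF7 has the SP1 letters on each strand. SRSF5, which rose in U2OS-AsiSI, and SRSF4, which fell, both hold the ETS letters, and the stretches of SRSF9 and SRSF11 hold no match.
SRSF3: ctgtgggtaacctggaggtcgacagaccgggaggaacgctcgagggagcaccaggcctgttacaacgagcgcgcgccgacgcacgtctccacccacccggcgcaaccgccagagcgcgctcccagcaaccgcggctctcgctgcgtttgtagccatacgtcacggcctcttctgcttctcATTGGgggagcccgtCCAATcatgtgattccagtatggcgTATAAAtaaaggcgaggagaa
SRSF5: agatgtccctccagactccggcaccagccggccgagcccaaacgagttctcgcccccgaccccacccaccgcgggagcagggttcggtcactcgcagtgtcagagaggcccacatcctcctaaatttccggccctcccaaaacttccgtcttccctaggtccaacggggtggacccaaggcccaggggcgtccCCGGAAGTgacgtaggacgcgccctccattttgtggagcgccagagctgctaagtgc
SRSF7: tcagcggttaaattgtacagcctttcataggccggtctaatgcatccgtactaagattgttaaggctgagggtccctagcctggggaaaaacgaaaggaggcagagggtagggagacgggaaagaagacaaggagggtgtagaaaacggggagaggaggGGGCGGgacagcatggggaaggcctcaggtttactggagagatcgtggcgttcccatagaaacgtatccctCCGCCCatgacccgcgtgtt
SRSF9: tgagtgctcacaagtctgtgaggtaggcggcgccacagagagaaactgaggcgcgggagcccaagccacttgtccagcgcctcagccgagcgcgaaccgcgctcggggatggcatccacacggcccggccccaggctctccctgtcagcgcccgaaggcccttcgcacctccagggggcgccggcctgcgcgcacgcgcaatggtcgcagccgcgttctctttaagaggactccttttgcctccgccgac
SRSF4: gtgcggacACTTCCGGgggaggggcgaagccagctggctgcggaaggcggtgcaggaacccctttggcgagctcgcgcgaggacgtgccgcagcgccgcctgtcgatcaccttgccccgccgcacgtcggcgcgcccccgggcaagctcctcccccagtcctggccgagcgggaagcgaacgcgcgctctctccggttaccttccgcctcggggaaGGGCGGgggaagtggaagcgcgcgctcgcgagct
SRSF11: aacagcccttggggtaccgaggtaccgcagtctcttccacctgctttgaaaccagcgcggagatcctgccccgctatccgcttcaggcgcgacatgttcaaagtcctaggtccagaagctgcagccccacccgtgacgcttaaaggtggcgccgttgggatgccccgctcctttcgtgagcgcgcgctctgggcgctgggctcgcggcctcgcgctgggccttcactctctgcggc

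The first comparison asked what siINTS11 did to the SR genes in U2OS-AsiSI. In edgeR's quasi-likelihood test, adjusted by Benjamini-Hochberg over all genes, 8 of the 10 members passed an adjusted p of 0.05, 6 higher and 2 lower. Of all 20441 genes tested 68% passed, 35.4% higher and 32.6% lower, so the share that passed is near the background. SRSF1 is among the 8, though it passed the filter on low counts only through its siINTS11 libraries. Without SRSF1 and SRSF6 it was 7 of 8, 5 higher and 2 lower. SRSF2, SRSF3, SRSF5, SRSF7 and SRSF9 rose by 0.13 to 0.25 on the log2 scale, SRSF4 and SRSF11 fell, and SRSF1 rose in its 100 bases. The members' median log2 fold change was 0.19, against 0.03 over all genes, and without SRSF1 and SRSF6 it was 0.16 over 8 members. Their median absolute change was 0.19, against 0.35 over all genes.

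These values are relative to a typical gene. When libraries were scaled by total alone, the all-gene median went from 0.03 to 0.22 in U2OS-AsiSI and from 0.02 to 0.22 in U2OS, and these counts give no absolute level. The calls then split 8 higher and 0 lower in U2OS-AsiSI, and 7 higher and 0 lower in U2OS. No share of all genes higher or lower is given on that scale, so these splits have no background beside them. Among the calls were SRSF4 in both lines and SRSF10 in U2OS, each called lower there with TMM scaling. On that scale SRSF4 turned to 0.09 in U2OS-AsiSI and to 0.11 in U2OS, SRSF10 to 0.11 and SRSF11 to 0.05 in U2OS, while SRSF11 stayed negative in U2OS-AsiSI at -0.06 without passing (edgeR adjusted p 0.133).

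**Figure D2:**
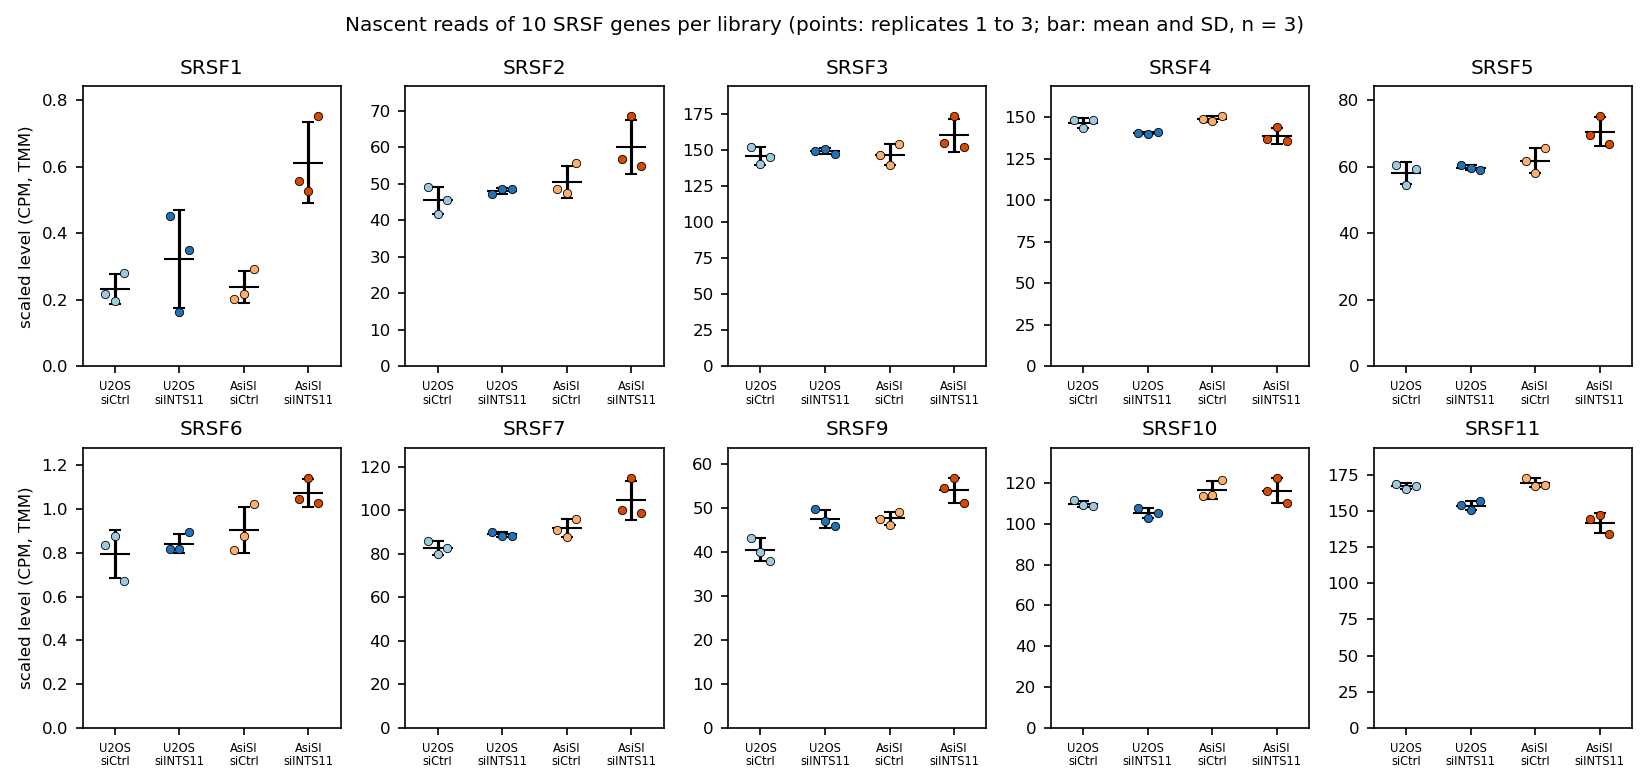
Scaled nascent level (CPM, TMM) of the 10 SR genes; each point is 1 of 3 libraries per group, bars are mean and SD, and each panel has its own y axis from 0. In U2OS-AsiSI the siINTS11 libraries of SRSF11 (134 to 147 CPM) lie below the siCtrl libraries (167 to 173), and those of SRSF9 (51.0 to 56.6) lie above them (46.1 to 49.1).

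SRSF2, SRSF3 and SRSF7, which carry a single RNA recognition motif, were taken as a first group. SRSF2 stood at 48.5, 47.5 and 55.6 CPM in siCtrl replicates 1 to 3 of U2OS-AsiSI and at 56.9, 68.6 and 54.8 in siINTS11. The groups overlapped by 1 library each way, siCtrl replicate 3 and siINTS11 replicate 3, while the raw reads did not overlap: 1431, 1516 and 1522 against 1629, 1558 and 1602. The rise was 0.25 (SE 0.07, edgeR adjusted p 0.00144), or 1.19-fold.

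SRSF7 stood at 91.1, 87.9 and 96.0 CPM in siCtrl and at 100.2, 115 and 98.8 in siINTS11 of U2OS-AsiSI. The siINTS11 libraries were all higher, and the rise was 0.19 (SE 0.05, edgeR adjusted p 0.00169). SRSF3 stood at 146.9, 139.8 and 153.9 CPM in siCtrl and at 155.0, 173.6 and 152.3 in siINTS11. Its groups overlapped, and the rise of 0.13 (SE 0.05, edgeR adjusted p 0.0232) was the smallest of the 6. Without U2OS-AsiSI siINTS11 replicate 2 it was 0.07 (edgeR adjusted p 0.258) and without siCtrl replicate 2 0.09 (edgeR adjusted p 0.167), and it did not pass in either fit, with median-of-ratios factors (0.11, edgeR adjusted p 0.0751) or under DESeq2 (0.11, adjusted p 0.0972).

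SRSF5, SRSF9 and SRSF4, which with SRSF1 and SRSF6 carry an additional, atypical RNA recognition motif, did not move together. SRSF5 stood at 61.6, 58.1 and 65.7 CPM in siCtrl of U2OS-AsiSI and at 69.4, 75.2 and 66.8 in siINTS11, all siINTS11 libraries higher. The rise was 0.19 (SE 0.05, edgeR adjusted p 0.00175). SRSF9, an SR protein with a short RS tail, stood at 47.4, 46.1 and 49.1 CPM in siCtrl and 54.4, 56.6 and 51.0 in siINTS11, again apart. The rise was 0.19 (SE 0.05, edgeR adjusted p 0.00186).

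SRSF4, the largest classical SR protein, went the other way. It stood at 149, 148 and 151 CPM in siCtrl of U2OS-AsiSI and at 137, 144 and 135 in siINTS11, so that all siINTS11 libraries were lower. The fall of 0.10 (SE 0.04, edgeR adjusted p 0.049) lies at the threshold. It did not pass when siCtrl replicate 1, 2 or 3 or siINTS11 replicate 1 or 3 was left out (edgeR adjusted p from 0.0966 to 0.142), with only genes averaging 50 or more reads kept (-0.05, edgeR adjusted p 0.333) or after thinning (-0.09, edgeR adjusted p 0.0942), and without siINTS11 replicate 2 it was -0.13 (edgeR adjusted p 0.0298).

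SRSF10 and SRSF11 are usually set apart from the classical SR proteins. SRSF11, an atypical SR protein, was at 173, 167 and 168 CPM in siCtrl of U2OS-AsiSI and at 145, 147 and 134 in siINTS11. All siINTS11 libraries lay lower, in scaled level and in raw reads (3339 to 4141 against 4609 to 5347). The fall was 0.25 (SE 0.05, edgeR adjusted p 1.53e-05), with the lowest adjusted p of the members. SRSF10 was at 114, 114 and 122 CPM in siCtrl and at 116.2, 122.7 and 110.1 in siINTS11. Its groups overlapped, and the log2 fold change of 0.00 (95% interval from -0.09 to 0.10) did not pass, while library totals alone gave 0.19.

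The 2 masked members gave values for their short stretches only. SRSF1 had 6, 7 and 8 reads in siCtrl of U2OS-AsiSI and 16, 12 and 22 in siINTS11, apart in raw reads and in level. The rise was 1.38 (SE 0.33, edgeR adjusted p 0.000586), but SRSF1 passed the filter on low counts only through its siINTS11 libraries, so that a tested SRSF1 had to differ. AC015813.2 covers the rest of the SRSF1 span. Its 6069 bases shared with no gene of its strand all lie past the 3' end of that span. If shared reads were dropped, its counts come from there and give no level for the SRSF1 span itself. AC015813.2 had 49.3 ± 2.57 CPM in siCtrl and 46.1 ± 1.496 in siINTS11, and its -0.09 (SE 0.05, edgeR adjusted p 0.107) did not pass. The opposite-strand AC015813.5, which crosses the 5' end of SRSF1, rose by 0.65 (SE 0.09, edgeR adjusted p 2.1e-07). SRSF6 had 24, 28 and 28 reads in siCtrl and 30, 26 and 30 in siINTS11, overlapping in reads but wholly higher in scaled level (1.03 to 1.14 against 0.814 to 1.02 CPM). Its 0.25 (SE 0.21, edgeR adjusted p 0.319) did not pass. AL031681.3, whose 23288 bases of its own lie past the 3' end of SRSF6, did not pass either, at -0.08 (SE 0.07, edgeR adjusted p 0.318).

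By the overlap of libraries, 5 members were wholly higher and 2 wholly lower in scaled level, 7 of 10, against 71% of all genes tested. Without SRSF1 and SRSF6 it was 3 higher and 2 lower, 5 of 8. In raw reads SRSF1 and SRSF2 were wholly higher and SRSF4, SRSF10 and SRSF11 wholly lower, while SRSF3, SRSF5, SRSF6, SRSF7 and SRSF9 overlapped. Raw reads are not scaled for depth, and every siINTS11 library had a smaller total than every siCtrl library. No share over all genes was taken for raw reads, so these raw counts of members have no background beside them. Opposite-strand neighbours gave values of their own. MFSD11, over SRSF2, rose by 0.51 (SE 0.06, edgeR adjusted p 3.45e-09) and GATC, over SRSF9, by 0.34 (SE 0.08, edgeR adjusted p 0.000802), while AC005837.2, at 12 to 28 reads, changed by -0.04 without passing. AL353771.1, over SRSF11, had 3 to 15 reads and was not tested.

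The same comparison in U2OS, without the nuclease and with no OHT given in the labels, called fewer members. Of 9 members tested 4 passed, 1 higher and 3 lower, where 66.9% of 20687 genes passed, 34.5% higher and 32.4% lower. SRSF9 rose and SRSF4, SRSF10 and SRSF11 fell. The members' median was 0.01, against 0.02 over all genes, and their median absolute change 0.08, against 0.33. By libraries 2 members were wholly higher and 3 wholly lower, against 69.4% of all genes that did not overlap either way.

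SRSF9 stood at 43.2, 40.03 and 38.0 CPM in siCtrl of U2OS and at 49.7, 46.9 and 45.8 in siINTS11, with no overlap. The rise was 0.21 (SE 0.05, edgeR adjusted p 0.00042), and GATC across from it rose by 0.23 (SE 0.08, edgeR adjusted p 0.013; without siINTS11 replicate 2 0.21, adjusted p 0.0611). SRSF9 was the member that passed as higher in both lines, in every alternative fit of either line.

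SRSF11 stood at 169, 165 and 168 CPM in siCtrl of U2OS and at 154.2, 150.4 and 156.8 in siINTS11, again with no overlap. The fall was 0.15 (SE 0.04, edgeR adjusted p 0.000795), smaller than the 0.25 of U2OS-AsiSI. SRSF4 (148.3, 143.3 and 148.5 CPM against 140.5, 140.1 and 141.2) fell by 0.09 (SE 0.04, edgeR adjusted p 0.0376), with no overlap. SRSF10 (111, 109 and 109 CPM against 108, 103 and 105) fell by 0.09 (SE 0.04, edgeR adjusted p 0.0437), also apart.

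The calls on SRSF4 and SRSF10 in U2OS were weak. With a library removed, SRSF4 passed only where it was siINTS11 replicate 3, and SRSF10 only where it was siINTS11 replicate 1. With any of the other 5 removed the edgeR adjusted p ran from 0.063 to 0.12 for SRSF4 and from 0.0587 to 0.176 for SRSF10. Neither passed without a count filter, at a mean count of at least 50 or after thinning.

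The other members did not pass in U2OS. SRSF2 stood at 49.1, 41.8 and 45.4 CPM in siCtrl and at 47.1, 48.5 and 48.6 in siINTS11 (0.05, SE 0.05, edgeR adjusted p 0.338). SRSF7 stood at 86.0, 79.8 and 82.5 against 90.2, 88.3 and 88.4 CPM (0.08, SE 0.04, edgeR adjusted p 0.0977), with all siINTS11 libraries higher. SRSF7 passed at a mean count of at least 50 (0.12, edgeR adjusted p 0.0087), and without siCtrl replicate 1 both passed, at 0.12 (edgeR adjusted p 0.024) for SRSF2 and 0.11 (edgeR adjusted p 0.0168) for SRSF7. SRSF3 stood at 152.3, 140.1 and 145.5 against 149.6, 151.0 and 147.1 CPM (0.00, 95% interval from -0.08 to 0.08), and SRSF5 at 60.5, 54.5 and 59.2 against 60.6, 59.5 and 59.0 CPM (0.01, interval from -0.07 to 0.10). Both overlapped, with siCtrl replicate 2 the lowest library of each. SRSF6 had 23, 31 and 19 against 27, 25 and 28 reads (0.04, interval from -0.41 to 0.50). SRSF1, at 6, 7 and 8 reads against 15, 5 and 11, was below the count filter and not tested, while AC015813.2 changed by -0.09 (SE 0.05, edgeR adjusted p 0.107) and AC015813.5 rose by 0.30 (SE 0.09, edgeR adjusted p 0.00479).

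**Figure D3:**
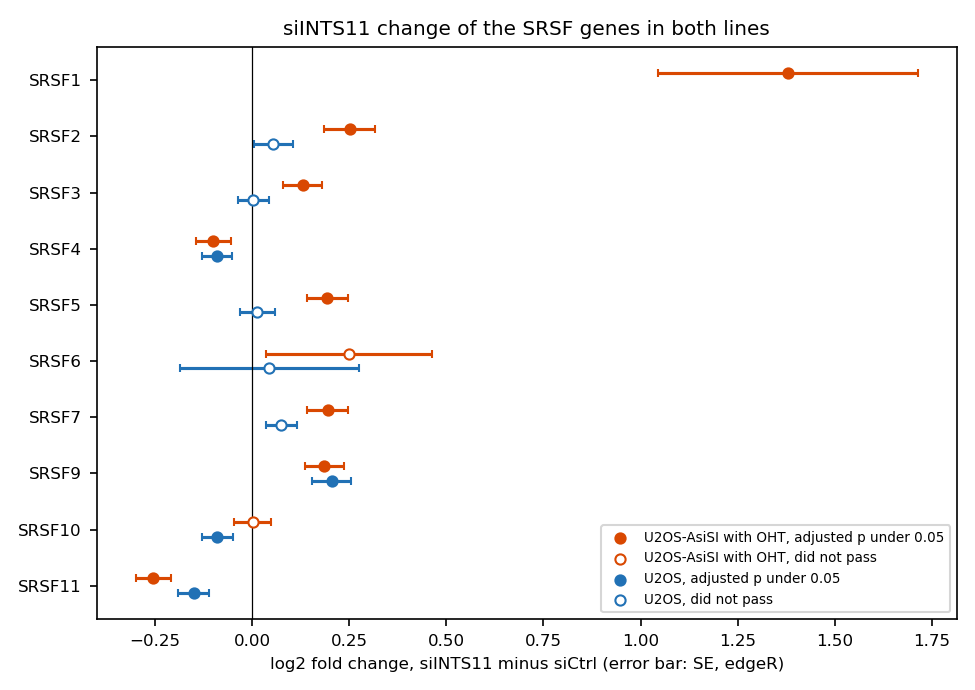
Log2 fold change of each SR gene after siINTS11 in U2OS-AsiSI (orange) and U2OS (blue). Error bars are SE, derived from edgeR's F statistic. Filled points passed an adjusted p of 0.05, and SRSF1 was not tested in U2OS. SRSF9 is higher (0.19 and 0.21) and SRSF4 and SRSF11 are lower in both lines (-0.10 and -0.25, and -0.09 and -0.15), while SRSF2, SRSF3, SRSF5 and SRSF7 passed in U2OS-AsiSI alone; under library totals alone the U2OS values of SRSF4 and SRSF11 and the U2OS-AsiSI value of SRSF4 turn positive.

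Whether siINTS11 acted differently in the lines was tested directly, by an interaction term fitted to the 12 libraries. The test called 0 of the 10 members in edgeR and 0 in DESeq2, where edgeR called 3.87% of 21521 genes, 0.762% higher and 3.1% lower. The median difference was 0.09 over the members and -0.05 over all genes, so a typical gene does not lie at 0 here. An unadjusted edgeR p under 0.05 was reached by 2 of the 10 members, where 4001 of the 21521 genes reached it. These members were SRSF5 (0.15, 95% interval from 0.01 to 0.28, edgeR adjusted p 0.26) and SRSF11 (-0.14, interval from -0.25 to -0.02, edgeR adjusted p 0.182). For SRSF2 the difference was 0.16 (interval from -0.03 to 0.36, edgeR adjusted p 0.403), for SRSF3 0.09 (from -0.04 to 0.22, edgeR adjusted p 0.478) and for SRSF7 0.08 (from -0.05 to 0.22, edgeR adjusted p 0.548). SRSF10 (0.06, from -0.06 to 0.17), SRSF4 (-0.04, from -0.15 to 0.06) and SRSF9 (-0.05, from -0.19 to 0.09) lay closer to 0, with edgeR adjusted p from 0.672 to 0.748, while the short stretches of SRSF1 (0.88, from -0.18 to 1.94) and SRSF6 (0.17, from -0.41 to 0.75) left wide intervals. A pass in U2OS-AsiSI beside none in U2OS is therefore not shown to be a difference between the lines.

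Depth moved with the rises in U2OS-AsiSI. Its siINTS11 libraries were the smallest of the series, 26579035, 20704611 and 26175227 counts, against 28299433 to 32981069 in siCtrl. Replicate 2, with the fewest, had the highest scaled level of its group for 9 of the 10 members, all but SRSF1, and so also for SRSF4 and SRSF11, which fell. How often replicate 2 was highest over all genes was not counted, so the 9 of 10 has no background beside it. Regressing a gene's log reads on the log of the total, inside groups, gave a slope of 0.25 for SRSF2, 0.58 for SRSF3, 0.57 for SRSF7 and SRSF5, 0.78 for SRSF9, 0.80 for SRSF10, 0.83 for SRSF4 and 0.90 for SRSF11. The median slope over 13557 genes of at least 100 reads was 1.03. By reads per base it was 1.06 for 12119 genes under 0.1, 0.80 for 1290 genes from 0.1 to 0.3 and 0.40 for 108 genes from 0.3 to 0.5. The reads of the densest SR genes thus grew less than in proportion to depth, as did those of the typical gene of like density.

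Other dense genes gave like values. In U2OS-AsiSI the 178 genes over 0.3 reads per base, SRSF2, SRSF3 and SRSF7 among them, had a median of 0.23 with 74.7% called higher, and the 18870 genes under 0.1 a median of 0.01 with 34.3%. In U2OS the 178 genes over 0.3 had a median of -0.0027 with 19.7% higher. The part of depth in the rises was not tested by these values. With U2OS-AsiSI siINTS11 replicate 2 left out, SRSF2 rose by 0.15 (edgeR adjusted p 0.0233), SRSF7 by 0.12, SRSF5 by 0.15 and SRSF9 by 0.15. With all libraries thinned to the smallest total the rises were 0.28 for SRSF2, 0.19 for SRSF7, 0.21 for SRSF5 and 0.22 for SRSF9. With counts expanded as if each base could give at most 1 read they were 0.30, 0.21, 0.20 and 0.19, and in U2OS SRSF2 and SRSF7 then passed as well, at 0.11 each (edgeR adjusted p 0.0459 and 0.0138).

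**Figure D4:**
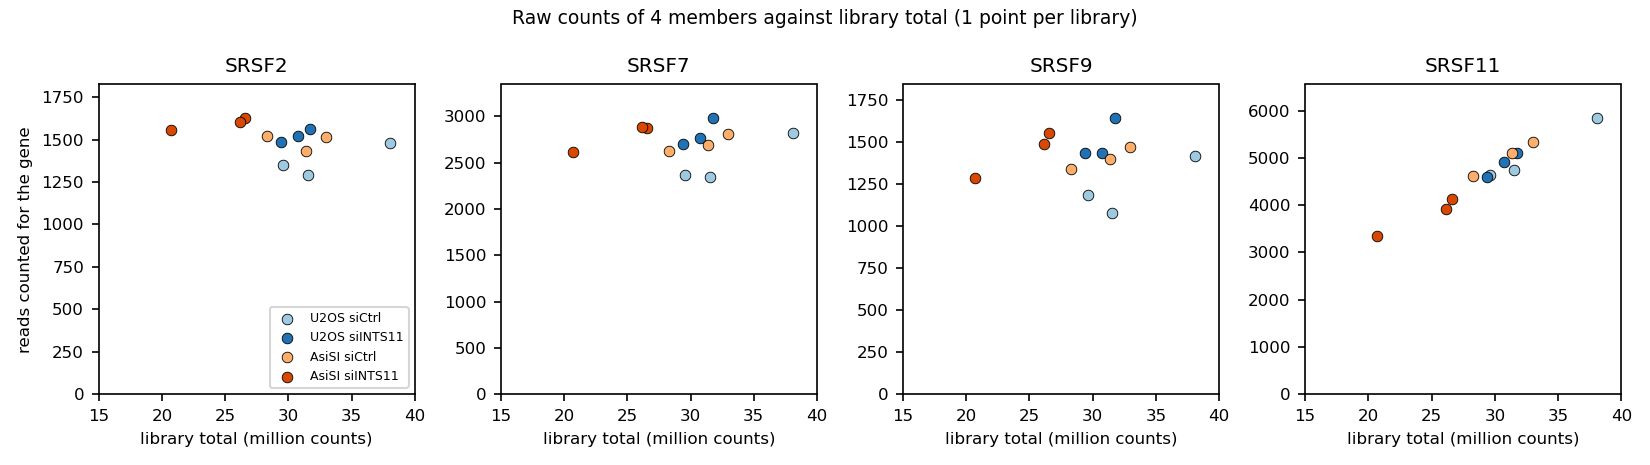
Raw reads of SRSF2, SRSF7, SRSF9 and SRSF11 (y axes from 0) against the total counts of the library, 1 point per library, coloured by group. SRSF11 follows the total (within-group slope 0.90), while SRSF2 stays between 1289 and 1629 reads in all 12 libraries (slope 0.25).

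As a share of all counts the 10 genes together made up 0.0733% ± 0.00251 in U2OS siCtrl, 0.0822% ± 0.00134 in U2OS siINTS11, 0.0800% ± 0.00295 in U2OS-AsiSI siCtrl and 0.0931% ± 0.00539 in U2OS-AsiSI siINTS11 (SD, n = 3). Library by library the last group held 0.0900%, 0.0993% and 0.0899%, all above the other 9, whose highest was 0.0836%. These shares use library totals with no composition factor, so they carry the shift of all genes described above.

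Comparing the lines under one siRNA at a time sets U2OS-AsiSI with OHT against U2OS. Under siCtrl 3 of 9 members tested passed, all higher in U2OS-AsiSI, where 34.9% of 19935 genes passed, 17.8% higher and 17.2% lower. SRSF9 was higher by 0.24 (SE 0.05, edgeR adjusted p 0.000643), SRSF2 by 0.16 (SE 0.06, edgeR adjusted p 0.0436) and SRSF7 by 0.15 (SE 0.05, edgeR adjusted p 0.00982). The levels of SRSF9 (46.1 to 49.1 against 38.0 to 43.2 CPM) and SRSF7 (87.9 to 96.0 against 79.8 to 86.0) did not overlap between the lines and those of SRSF2 did. SRSF10 was also apart (114 to 122 against 109 to 111 CPM) and at 0.09 did not pass (edgeR adjusted p 0.114), which makes 3 members with libraries apart, against 44.9% of all genes. SRSF3 (0.01), SRSF4 (0.03), SRSF11 (0.02), SRSF5 (0.09) and SRSF6 (0.17) overlapped and did not pass. Without U2OS siCtrl replicate 2, or without U2OS-AsiSI siCtrl replicate 3, only SRSF9 passed, and without U2OS siCtrl replicate 3 SRSF2 did not pass. Of the 3 calls, that on SRSF9 alone held with each library removed.

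Under siINTS11 7 of 10 members passed as higher in U2OS-AsiSI, where 43.6% of 20802 genes passed, 22.2% higher and 21.4% lower. Without SRSF1 and SRSF6 it was 6 of 8. The median over members was 0.24, against 0.01 over all genes. SRSF2 was higher by 0.35 (SE 0.05, edgeR adjusted p 1.21e-06), SRSF5 by 0.27 (SE 0.05, edgeR adjusted p 5.83e-06), SRSF7 by 0.27 (SE 0.05, edgeR adjusted p 1.09e-05), SRSF9 by 0.22 (SE 0.05, edgeR adjusted p 0.000291) and SRSF10 by 0.18 (SE 0.04, edgeR adjusted p 0.00109). SRSF3 was higher by 0.14 (SE 0.05, edgeR adjusted p 0.0117), a call lost without U2OS-AsiSI siINTS11 replicate 2 (0.08, edgeR adjusted p 0.186). SRSF1 was higher by 0.95 (SE 0.33, edgeR adjusted p 0.0157) in its 100 bases, having passed the filter through 1 group again, and that call was lost without U2OS siINTS11 replicate 2 or U2OS-AsiSI siINTS11 replicate 3 (edgeR adjusted p 0.127 and 0.125).

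SRSF11 (-0.08, edgeR adjusted p 0.127), SRSF4 (0.02, edgeR adjusted p 0.779) and SRSF6 (0.38, edgeR adjusted p 0.162) did not pass. In 9 of the 10 members the libraries of the lines were apart, 8 higher and 1, SRSF11, lower in U2OS-AsiSI, against 52.9% of all genes. Without SRSF1 and SRSF6 it was 7 of 8, 6 higher and 1 lower. In raw reads, which are not scaled for depth, SRSF3, SRSF4 and SRSF11 were wholly lower in U2OS-AsiSI and no member was wholly higher. For raw reads no share over all genes was taken. This comparison shares its libraries with those above and carries the same difference in depth, 20704611 to 26579035 counts against 29397678 to 31743963.

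The genes that act on or beside SR proteins were described by lists. Of the kinases and import receptors of SR proteins 5 of 9 passed in U2OS-AsiSI, 1 higher and 4 lower, with a median of -0.09, and 4 of 9 in U2OS, all lower, with a median of -0.19. Of all genes 68% passed in U2OS-AsiSI (35.4% higher and 32.6% lower) and 66.9% in U2OS (34.5% and 32.4%), the background for each list here. SRPK2, which phosphorylates the RS tail in the cytoplasm, fell by 0.45 and 0.40 in U2OS-AsiSI and U2OS (SE 0.05 and 0.04, edgeR adjusted p 2.92e-09 and 2.4e-10). DYRK1A, a kinase of nuclear speckles, fell by 0.37 and 0.30, CLK4, a nuclear SR kinase, by 0.39 and 0.19, and TNPO3, which encodes transportin-SR, by 0.25 and 0.19. Under library totals alone the U2OS values of CLK4 and TNPO3 turned to 0.01 each, TNPO3 in U2OS-AsiSI no longer passed (-0.06, edgeR adjusted p 0.21), and the list medians turned to 0.10 and 0.01.

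SR-related proteins, which carry an RS domain or act with SR proteins, were split. In U2OS-AsiSI 3 of 30 were higher and 8 lower (median -0.03), and in U2OS 4 higher and 10 lower (median -0.00), medians that turned to 0.16 and 0.20 under library totals alone. RSRC1, an RS protein of spliceosome assembly, fell by 0.60 and 0.47 in U2OS-AsiSI and U2OS (SE 0.05 and 0.04, edgeR adjusted p 9.94e-13 and 8.99e-13), ZRANB2 by 0.24 and 0.26, SCAF11 by 0.27 and 0.23, and SCAF1 by 0.24 and 0.16. Under library totals alone these 3 no longer passed in either line: ZRANB2 was at -0.05 and -0.06 (edgeR adjusted p 0.339 and 0.182), SCAF11 at -0.08 and -0.03 (0.0576 and 0.476) and SCAF1 at -0.05 and, turned, 0.04 (0.39 and 0.519).

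Of hnRNP proteins 5 of 22 were higher and 3 lower in U2OS-AsiSI (median 0.02) and 3 higher and 6 lower in U2OS (median -0.08). The U2OS median turned to 0.12 under library totals alone, and that of U2OS-AsiSI to -0.0048 with median-of-ratios factors. The polypyrimidine tract binding proteins PTBP3 and PTBP2 fell by 0.61 and 0.52, and by 0.50 and 0.43, in U2OS-AsiSI and U2OS, and HNRNPLL, which directs CD45 splicing in lymphocytes, by 0.41 and 0.46. HNRNPH1, which binds G-runs, rose by 0.51 (SE 0.09, edgeR adjusted p 2.27e-05) and 0.50 (SE 0.10, edgeR adjusted p 3.18e-05). Its entry held only 138 to 261 reads per library, and 0.240 CPM per kb in U2OS siCtrl against 2.99 for PTBP2. Overlapping entries were looked up for the members only, so how much of HNRNPH1 or of other list genes is counted was not checked. Of core spliceosomal proteins 12 of 29 were higher and 3 lower in U2OS-AsiSI and 14 higher and 3 lower in U2OS, with a median of 0.09 in both. The 15 and 17 of 29 called are a smaller share than the 68% and 66.9% of all genes. SNRPD2 and SNRPE, of the Sm ring, rose by 0.24 and 0.23 (SE 0.07 in both) and by 0.19 and 0.24 (SE 0.05 and 0.04), and SNRNP200, the helicase of the U5 snRNP, by 0.27 and 0.19. SF3B1, which grips the branch point, fell by 0.18 and 0.17, values that turned to 0.01 and 0.03 under library totals alone.

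**Figure D5:**
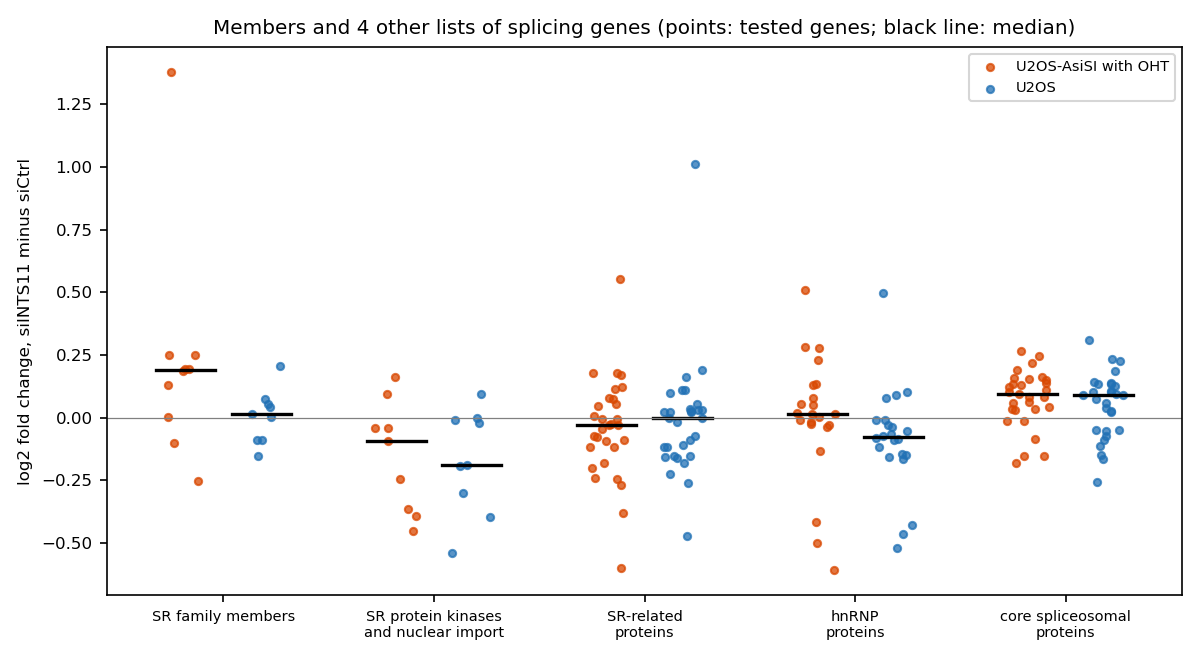
Log2 fold change after siINTS11 of each tested gene in the SR family and 4 other lists, in U2OS-AsiSI (orange) and U2OS (blue), with the black line at the median of a list. The SR family median is 0.19 in U2OS-AsiSI and 0.01 in U2OS, and that of the core spliceosomal proteins 0.09 in both; under library totals alone the medians of kinases and of SR-related proteins, and the U2OS median of hnRNP proteins, turn positive, and with median-of-ratios factors the SR family median in U2OS and the hnRNP median in U2OS-AsiSI turn just below 0.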

How the data were processed

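TT-seq counts of 12 libraries were used. The authors deposited read counts, not normalized, for each annotated gene over its full span, per the file headers, with coordinates, strand and length. The submitters' processing notes name Trimmomatic 0.36, STAR 2.7, deepTools, featureCounts and hg38; strand setting and the handling of duplicates and of overlapping genes are not given in the sources used here. Unmapped count columns numbered 0, and rows naming no gene 0.

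The test was edgeR's quasi-likelihood test (edgeR 4.0.16, R 4.3.3; filterByExpr, TMM, glmQLFit with robust estimation, glmQLFTest), two-sided, on the 6 libraries compared or all 12 for the interaction, with Benjamini-Hochberg adjustment over all genes tested and a threshold of 0.05. The test prints no SE, so each SE was derived as the absolute log2 fold change divided by the square root of its F statistic. Intervals are 95%, from these SEs and a normal quantile. Totals of 20704611 to 38065726 counts limit genes of few reads, and since no molecular identifiers are named, intervals and limits cover counting error and the spread of libraries only. Scaling was changed to median-of-ratios factors or to totals only; the low-count filter was dropped or raised to a mean of 50; DESeq2 1.42.0, a block for the replicate number, thinning and the removal of each library were tried; counts expanded for a ceiling of 1 read per base were chosen after seeing the data.

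In simulated data with 200 changed genes, 98% of 2-fold and 86% of 1.5-fold changes were recovered in the U2OS-AsiSI comparison (20143 genes), 93% and 85% in U2OS (20435 genes) and 89% and 76% for the interaction (21333 genes), with 5.64%, 8.72% and 8.33% of calls false. These rates do not carry over to the member calls. In the data 68% and 66.9% of genes were called after siINTS11 in U2OS-AsiSI and U2OS. The called members other than SRSF1 moved there by only 0.09 to 0.25 on the log2 scale. Members and lists were chosen with earlier results of these data known. Named are all members, INTS11, tested genes that overlap a member, and per list up to 4 genes past the threshold in both lines, of mean count at least 100, with the largest mean absolute change. Figures were drawn with matplotlib 3.10.9. Some marker genes are not reported here.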

Additional observations from a re-analysis of the deposited data

Results flagged for a closer look

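Among the genes described, 3 core spliceosomal proteins passed the interaction test over 12 libraries for a difference between the lines in siINTS11 log2 fold change, and all 3 were picked out for that reason. That fit scales the 12 libraries together and has an all-gene median of -0.05. A difference therefore need not equal the gap between the values of the lines, which come from separate fits. SNRPF, of the Sm ring, changed by -0.15 in U2OS-AsiSI and 0.06 in U2OS, a difference of -0.2442 (SE 0.07, edgeR adjusted p 0.0377), and its U2OS-AsiSI value turned to 0.04 under library totals alone. That difference passed in 3 of 20 alternative fits, those without U2OS siCtrl replicate 2, U2OS-AsiSI siCtrl replicate 1 or U2OS-AsiSI siINTS11 replicate 1, and reached an adjusted p of 0.230 in the others. SF3A2, of the U2 snRNP, changed by 0.22 and -0.05, a difference of 0.2362 (SE 0.07, edgeR adjusted p 0.0459), and its U2OS value turned to 0.15 under library totals alone. It was lost in 11 of 20 alternatives (adjusted p up to 0.147), and with a library removed it passed only where that was U2OS siCtrl replicate 2 or 3, U2OS-AsiSI siCtrl replicate 3 or U2OS-AsiSI siINTS11 replicate 1. PRPF4, of the U4/U6 snRNP, changed by 0.03 and 0.31, a difference of -0.3095 (SE 0.07, edgeR adjusted p 0.00906). It passed in 18 of 20 alternatives and was lost without a count filter (-0.26, edgeR adjusted p 0.0531) and without U2OS siCtrl replicate 3 (-0.26, edgeR adjusted p 0.0695). With median-of-ratios factors the difference was -0.21 for SNRPF (edgeR adjusted p 0.0992), 0.27 for SF3A2 (edgeR adjusted p 0.0316) and -0.28 for PRPF4 (edgeR adjusted p 0.0297).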

How the results depend on the processing

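The count of members called, SRSF1 included where tested, stayed at 6 to 8 in U2OS-AsiSI over 14 alternatives (6 to 7 with 1 library left out), at 0 for the difference between lines over 20, and at 6 to 7 between lines under siINTS11. It moved in U2OS, from 4 to 7 with library totals alone, 2 without a count filter, 2 after thinning and 2 to 4 with 1 library left out (2 without U2OS siCtrl replicate 2, siCtrl replicate 3 or siINTS11 replicate 2), and under siCtrl between lines from 3 to 5 with library totals alone and 1 to 4 with 1 library left out. The replicate number as a block changed no member's call, with 8 and 4 members called after siINTS11 in U2OS-AsiSI and U2OS, 0, 3 and 7 in the others; correlations of same-numbered libraries ran from -0.21 to 0.28, so the numbers give no pairing. The causes of these moves were not tested.

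Library totals alone reversed, in U2OS-AsiSI, SRSF4 (0.091), INTS11 (0.062), AC015813.2 (0.10), AC005837.2 (0.15), AL031681.3 (0.11), SF3B1 (0.0095), SNRPF (0.038) and the medians of the kinases (0.10) and SR-related proteins (0.16). In U2OS they reversed SRSF4 (0.11), SRSF10 (0.11), SRSF11 (0.049), AC015813.2 (0.11), AL031681.3 (0.19), CLK4 (0.012), TNPO3 (0.0087), SCAF1 (0.040), SF3B1 (0.033), SF3A2 (0.15) and the medians of the kinases (0.012), SR-related (0.20) and hnRNP proteins (0.12). SRSF10 in U2OS-AsiSI turned to -0.018 with median-of-ratios factors and in DESeq2, -0.014 without a filter, -0.012 with expanded counts, -0.0043 after thinning, and -0.039 to 0.040 with 1 library left out. In U2OS median-of-ratios factors and DESeq2 turned SRSF3 to -0.010 each and SRSF5 to -0.00080 and -0.0013, and the members' median to -0.00080, while the hnRNP median in U2OS-AsiSI turned to -0.0048 with median-of-ratios factors. AL031681.3 in U2OS turned to 0.033 at a mean count of at least 50 and 0.047 after thinning. The difference between lines of SRSF4 turned to 0.0062 without a filter and 0.027 at a mean count of at least 50, and that of SRSF9 to 0.017 at that mean count.

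With 1 library left out, sign changes fell to SRSF3 (-0.015 to 0.042), SRSF5 (-0.022 to 0.051), SRSF6 (-0.050 to 0.14), AC005837.2 (-0.21 to 0.34) and AL031681.3 (-0.082 to 0.064) in U2OS, AC005837.2 in U2OS-AsiSI (-0.29 to 0.12), the difference between lines of SRSF4 (-0.059 to 0.0035) and SRSF9 (-0.10 to 0.043), SRSF3 between lines under siCtrl (-0.019 to 0.050) and SRSF4 under siINTS11 (-0.013 to 0.036). SRSF9 kept its direction and call after siINTS11 in every alternative in both lines. Depth limits SRSF1 and SRSF6, read on 100 and 161 bases.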
